A study of Mus musculus with 21 samples.

Results

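miR-205 is a microRNA whose hairpin gives 2 mature strands, miR-205-5p and miR-205-3p, and both were followed across pituitary libraries of 3 *Zeb1* genotypes. It was chosen by its reads in these same libraries, because miR-205-5p was lower in mutant than in WT pituitary. Its values relative to WT are therefore a description, given with no test, and those of the 2 mutant genotypes were tested against each other. Other miRNAs were tested in all comparisons. The members are the rows of these 2 names, of 1934 miRNA names listed in either cohort.

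The series holds 21 small-RNA-seq libraries, each from the pituitary of a different female mouse on the C57BL/6J background. WT mice carried unaltered *Zeb1*, *Zeb1 200H* mice carried 1 allele whose 3′ UTR sites for miR-200a/b were mutated, and *Zeb1 200M* mice carried 2 such alleles. The virgin cohort, 8–12 weeks old, gave 3 WT, 4 *Zeb1 200H*, and 4 *Zeb1 200M* libraries. The breeding trial cohort, 28–36 weeks old and housed earlier with WT males, gave 4 WT, 3 *Zeb1 200H*, and 3 *Zeb1 200M* libraries. By the paper, most *Zeb1 200M* females of that trial bore no litter. Genotype and litters borne thus cannot be told apart where *Zeb1 200M* is compared in that cohort. The knock-in is present in every cell of the animal and descends from 2 embryonic stem cell clones, which were not told apart here.

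As background, miR-205 is known from epithelia, above all stratified epithelia such as skin, and it represses ZEB1 and ZEB2 through sites in their 3′ UTRs. The miR-200 superfamily represses the same pair of transcription factors, and ZEB1 in turn represses transcription of the miR-200 clusters. The knock-in removes the miR-200 input to *Zeb1* from this loop, and the comparison here asks how much of miR-205, another repressor of ZEB1, was present in the same pituitaries.

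The mature strands of miR-205 are shown because the seed, bases 2 to 8 in capitals, is what a miRNA pairs with in its targets. Both members matched the RefSeq miRNA sequences of GRCm38.p6, and no other mature miRNA among 1679 reference names shares the seed of either strand.
miR-205-5p: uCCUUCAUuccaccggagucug
miR-205-3p: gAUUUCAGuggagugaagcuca
The 5 guide strands of the miR-200 superfamily, the comparison set below, carry another pair of seeds. The first is shared by miR-200a-3p and miR-141-3p, and the other by miR-200b-3p, miR-200c-3p, and miR-429-3p.
miR-200a-3p: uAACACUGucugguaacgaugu
miR-141-3p: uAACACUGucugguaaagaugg
miR-200b-3p: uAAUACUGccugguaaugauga
miR-200c-3p: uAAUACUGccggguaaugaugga
miR-429-3p: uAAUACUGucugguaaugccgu
Both strands of miR-205 thus have other seeds than these guide strands. Reads were assigned by their first 19 nt in the virgin cohort and their first 18 nt in the breeding trial cohort. Over those lengths, 0 other reference miRNAs share the start of miR-205-5p or of miR-205-3p.

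On the minus strand of GRCm38, miR-205-5p lies at chr1:193507503-193507524 and miR-205-3p at chr1:193507467-193507488. The *Mir205* hairpin spans 68 bases, chr1:193507463-193507530, in exon 2 of the noncoding transcript *4631405K08Rik*, also named *Mir205hg*. The annotated start of that transcript lies 2644 bases upstream of the hairpin. Its RefSeq promoter window, chr1:193510161-193510460, runs from 250 bases before the RefSeq start to 50 after it. It was searched on both strands for CAGGTA and CAGGTG, letters of the E-box that ZEB1 binds. The window holds 1 CAGGTA, on the strand of the transcript, and 1 CAGGTG, on the opposite strand, which reads CACCTG on that of the transcript. Of 32851 promoter windows of this length, 29.5% hold at least 1 of these, so a match is common. CAGGTA is held by 12.0%, CAGGTG by 20.2%, and both by 2.66%. The matches describe the letters of the window, and binding of ZEB1 there was not measured.

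Counted miRNA reads per library ranged from 3816917 to 10806313 (median 9698685) in the virgin cohort and from 60037 to 191650 (median 118373.5) in the breeding trial cohort. Levels are given in CPM, the reads of a miRNA per 1000000 counted reads of its library. WT replicate 1 of the virgin cohort stood apart. It had the lowest total of its cohort, 3816917 reads, and a TMM scaling factor of 0.616, while those of the 10 libraries beside it ran from 0.943 to 1.12. Levels of miR-205 and other main values that rest on it are given with and without it.

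In virgin WT pituitary, replicates 1, 2, and 4 held 4208, 28090, and 27384 reads of miR-205-5p, which correspond to 1102, 2599, and 3033 CPM. The 4 *Zeb1 200H* libraries held 3683, 3319, 3989, and 3077 reads, or 359, 342, 396, and 359.8 CPM. The 4 *Zeb1 200M* libraries held 3680, 3002, 2756, and 3449 reads, or 350.0, 316, 324, and 336 CPM. All 8 mutant libraries lay below all 3 WT libraries. The lowest WT value, that of replicate 1, was 2.79 times the highest *Zeb1 200H* value and 3.15 times the highest *Zeb1 200M* value.

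Mean miR-205-5p was 2245 ± 1013 CPM in virgin WT (SD, n = 3), 364 ± 22.5 CPM in *Zeb1 200H* (SD, n = 4), and 331 ± 14.9 CPM in *Zeb1 200M* (SD, n = 4). The mutant means were 16.2% and 14.8% of the WT mean. Without WT replicate 1, the WT mean was 2816 ± 306 CPM (SD, n = 2), and the mutant means were 12.9% and 11.8% of it. As a description, the TMM-scaled edgeR fit, whose folds can differ from ratios of mean CPM, gave a log2 fold change of −3.07 (standard error 0.200) for *Zeb1 200M* relative to WT and of −2.88 (standard error 0.197) for *Zeb1 200H*. These are 8.39-fold and 7.35-fold lower levels. Without WT replicate 1, the values were −3.25 (standard error 0.0965) and −3.08 (standard error 0.0863), or 9.49-fold and 8.44-fold. In a whole gland, fewer cells that make miR-205 and less miR-205 per cell cannot be told apart.

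The coefficient of variation of miR-205-5p between virgin libraries was 6.19% in *Zeb1 200H*, 4.49% in *Zeb1 200M*, and 45.1% in WT. WT replicate 1 made most of that spread, as the value was 10.9% without it.

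In the breeding trial cohort, the 4 WT libraries held 448, 449, 254, and 481 reads of miR-205-5p, or 2899, 3941, 3020.5, and 2509.8 CPM. *Zeb1 200H* replicates 1, 3, and 4 held 38, 19, and 56 reads, or 345, 316, and 426 CPM. *Zeb1 200M* replicates 1, 2, and 3 held 29, 75, and 50 reads, or 331, 604, and 407 CPM. Again all mutant libraries, 6 here, lay below all 4 WT libraries, and the lowest WT value was 5.89 and 4.16 times the highest *Zeb1 200H* and *Zeb1 200M* values. The counts behind the mutant values are small. The 19 reads of *Zeb1 200H* replicate 3 give an exact Poisson 95% interval of 191 to 494 CPM, and the 75 reads of *Zeb1 200M* replicate 2 give 475 to 757 CPM. Such intervals cover counting error only, since PCR copies of a read are not independent molecules.

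Mean miR-205-5p in the breeding trial cohort was 3092 ± 606 CPM in WT (SD, n = 4), 363 ± 57.0 CPM in *Zeb1 200H* (SD, n = 3), and 447 ± 141 CPM in *Zeb1 200M* (SD, n = 3), so that the mutants held 11.7% and 14.5% of the WT mean. The described log2 fold change relative to WT was −3.22 (standard error 0.188) in *Zeb1 200H* and −2.98 (standard error 0.176) in *Zeb1 200M*, or 9.32-fold and 7.88-fold lower.

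**Figure D1:**
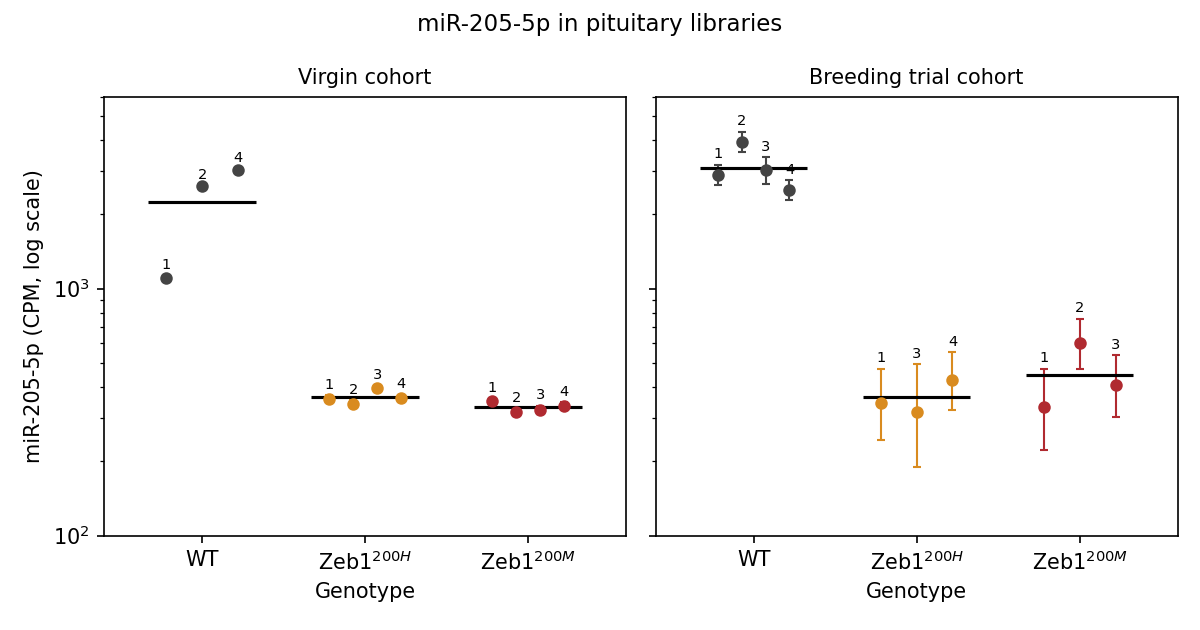
miR-205-5p in CPM (log scale) in each pituitary library, by genotype and cohort. Points are libraries numbered by replicate, vertical bars are exact Poisson 95% intervals of the count, and horizontal lines are group means. Virgin mutant libraries sit between 316 and 396 CPM, breeding trial mutant libraries between 316 and 604 CPM, and WT libraries between 1102 and 3941 CPM.

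For *Zeb1 200M* relative to WT, the virgin minus breeding trial difference in log2 fold change was −0.09 (standard error 0.266), and for *Zeb1 200H* it was 0.34 (standard error 0.272). In the main fit, both differences were smaller than 1 SD between replicates, 0.460 and 0.373 on the same scale. That SD is a spread of single libraries, and the *Zeb1 200H* difference was larger than its own standard error. Neither difference was tested. With single libraries left out, the *Zeb1 200M* difference ran from −0.268 to 0.211, so its direction was not stable. The *Zeb1 200H* difference ran from 0.143 to 0.516 with single libraries left out and from 0.336 to 0.381 under other settings. It thus passed 0.373 in some of these. Levels of the cohorts cannot be told apart from age, breeding, library preparation, sequencing instrument, and miRNA dictionary, all of which differed.

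Among the 1388 miRNAs with a read in the virgin cohort, miR-205-5p ranked 62nd in WT by mean CPM, just below miR-379-5p and miR-672-5p (2380 ± 295 and 2333 ± 1353 CPM; SD, n = 3) and just above miR-369-3p and miR-154-5p (2139 ± 1262 and 2101 ± 1199 CPM; SD, n = 3). These neighbours in WT did not differ from miR-205-5p beyond the spread between libraries. In the mutants miR-205-5p ranked 184th in *Zeb1 200H* and 202nd in *Zeb1 200M*, whereas miR-369-3p ranked 57th and 60th. The neighbour just above, miR-672-5p, ranked 92nd and 96th (log2 fold changes −1.51 and −1.56 relative to WT, not called). By edgeR, 0 of the 4 neighbours were called in either mutant, where 5.06% and 6.49% of all miRNAs tested were called. That count rests on WT replicate 1. With this library left out, 2 of the 4 were called lower in each mutant, where 21.6% and 23.9% of all miRNAs were called, namely miR-672-5p (−0.52 and −0.57) and miR-369-3p (−0.33 and −0.58). By WT replicates 2 and 4 alone, miR-205-5p ranked 58th in WT, between miR-369-3p and miR-21a-5p.

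Among WT libraries of the breeding trial, miR-205-5p ranked 50th by mean CPM, between miR-320-3p (3098 ± 387 CPM; SD, n = 4) and miR-204-5p (2903 ± 435 CPM; SD, n = 4). It ranked 179th in *Zeb1 200H* and 164th in *Zeb1 200M*, and miR-204-5p ranked 51st and 44th. Of the 4 nearest ranks, 2 were called in *Zeb1 200M* relative to WT, miR-320-3p (log2 fold change −0.58) and miR-137-3p (0.44), and 0 in *Zeb1 200H*, where 35.9% and 12% of all miRNAs tested were called.

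The comparison of *Zeb1 200M* with *Zeb1 200H* asks whether miR-205 was lower still with a second mutated allele. It did not enter the choice of miR-205 and was tested. In the breeding trial cohort, the second allele cannot be told apart from litters borne. In the virgin cohort, 3 of 4 *Zeb1 200M* libraries lay below all 4 *Zeb1 200H* libraries, and replicate 1, at 350.0 CPM, lay within their range. The log2 fold change of miR-205-5p was −0.19 (standard error 0.0750, 95% interval −0.35 to −0.03), a ratio of 0.876 (0.782 to 0.981). With adjustment over all 675 miRNAs tested it did not pass the threshold of 0.05 (edgeR, Benjamini-Hochberg adjusted p = 0.489), where 15 of 675 miRNAs, or 2.22%, were called. The interval is that of miR-205-5p alone, without adjustment for the other miRNAs, and its lower end is a ratio of 0.782.

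Among breeding trial mutants, 1 of 3 *Zeb1 200M* libraries, replicate 2, lay above all 3 *Zeb1 200H* libraries, and the other two lay within their range. The log2 fold change of miR-205-5p was 0.25 (standard error 0.229, 95% interval −0.20 to 0.71), a ratio of 1.19 (0.870 to 1.63). It did not pass the threshold either (edgeR, Benjamini-Hochberg adjusted p = 0.673 over 274 miRNAs), where 3 of 274, or 1.09%, were called. Without *Zeb1 200M* replicate 2 the log2 fold change was −0.028, so the direction rests on that library. The difference between the cohorts, −0.44 (standard error 0.241), was larger than 1 SD between replicates, 0.352 on the same scale, and was not tested.

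The guide strands of the superfamily give a scale for that step. Of the drop in mean CPM from virgin WT to *Zeb1 200M*, 98.3% was already present in *Zeb1 200H* for miR-205-5p, and 98.7% without WT replicate 1. The share was smaller for the guide strands, at 94.1% (miR-200a-3p), 92.3% (miR-200b-3p), 91.1% (miR-429-3p), 88.2% (miR-200c-3p), and 85.5% (miR-141-3p). Their range without WT replicate 1 was 83.8% (miR-200c-3p) to 94.2% (miR-200a-3p). Among breeding trial libraries it was 103% for miR-205-5p, since *Zeb1 200H* had the lower mean, and 85.4% for miR-200c-3p to 98.7% for miR-200a-3p among the guide strands. These shares use WT and are a description.

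The ratio of miR-205-5p to each guide strand within a library needs no scaling between libraries and uses no WT value when the mutants are compared. The 5 ratios share their miR-205-5p reads, so they are not independent of each other. For miR-200c-3p in the virgin cohort, the log2 ratio was −3.46, −3.31, −3.39, and −3.37 in the *Zeb1 200H* libraries and −2.23, −2.45, −2.31, and −2.35 in the *Zeb1 200M* libraries. All 4 *Zeb1 200M* values lay above all 4 *Zeb1 200H* values. A miR-205-5p read was accompanied by a mean of 10.4 miR-200c-3p reads in *Zeb1 200H* and 5.05 in *Zeb1 200M*.

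The log2 ratio to miR-200c-3p was higher in virgin *Zeb1 200M* by 1.05, and the ratio to miR-141-3p, encoded beside miR-200c, by 1.03. For the cluster of miR-200b, miR-200a, and miR-429, the ratio to miR-429-3p was higher by 0.61, that to miR-200b-3p by 0.31, and that to miR-200a-3p by 0.28. Each of the 5 differences had all 4 *Zeb1 200M* libraries above all 4 *Zeb1 200H* libraries. Each had a two-sided exact permutation p = 0.0286, the smallest that 4 against 4 libraries can give, and p = 0.0286 after Benjamini-Hochberg adjustment over the 5 exact tests.

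Per read of miR-205-5p, virgin *Zeb1 200H* held a mean of 12.7 reads of miR-141-3p, 5.28 of miR-200b-3p, 5.02 of miR-200a-3p, and 1.72 of miR-429-3p. Virgin *Zeb1 200M* held 6.21, 4.25, 4.13, and 1.12 in the same order. miR-205-5p thus gained on every guide strand from *Zeb1 200H* to *Zeb1 200M*. Between these groups the guide strands themselves changed by −0.47 (miR-200a-3p) to −1.24 (miR-200c-3p) on the log2 scale, beside −0.19 for miR-205-5p. The median over all 675 miRNAs tested was −0.0113. A miRNA without any change would thus gain on each guide strand too, and how many others did so was not counted. The ratios show that miR-205-5p fell less than the guide strands, not that this is particular to it.

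Among breeding trial libraries the log2 ratio of miR-205-5p to miR-200c-3p was −3.66, −3.92, and −3.30 in *Zeb1 200H* replicates 1, 3, and 4 and −2.48, −1.72, and −2.13 in *Zeb1 200M* replicates 1, 2, and 3. The *Zeb1 200M* mean was higher by 0.53 (miR-429-3p), 1.22 (miR-141-3p), and 1.52 (miR-200c-3p), each with 3 of 3 libraries above all *Zeb1 200H* libraries. Each of these 3 had exact permutation p = 0.1, the smallest that 3 against 3 libraries can give, and p = 0.167 after Benjamini-Hochberg adjustment over the 5 exact tests. The differences for miR-200b-3p, 0.59 with 2 of 3 libraries above, and miR-200a-3p, 0.36 with 1 of 3 above, had adjusted exact permutation p = 0.25 and 0.3. This design cannot reach a threshold of 0.05.

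As a description, the WT ratios show how WT replicate 1 of the virgin cohort differed. Its log2 ratio of miR-205-5p to miR-200c-3p was −4.73, against −2.49 and −2.32 in replicates 2 and 4, and −2.89 to −2.26 in the 4 WT libraries of the breeding trial. Its log2 ratio to miR-141-3p was −4.38, against −2.83 and −2.55.

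**Figure D2:**
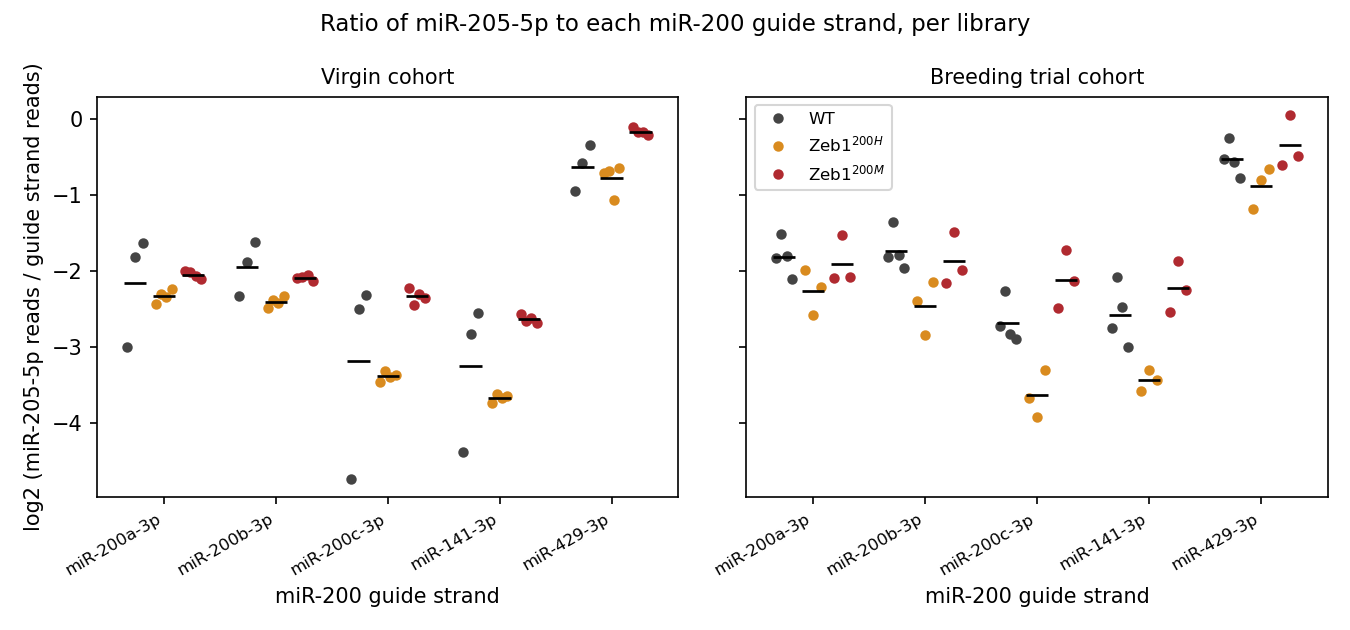
Log2 ratio of miR-205-5p reads to reads of each miR-200 guide strand, 1 point per library, by genotype and cohort, with group means as horizontal lines. For miR-200c-3p, virgin *Zeb1 200H* libraries sit between −3.46 and −3.31 and virgin *Zeb1 200M* libraries between −2.45 and −2.23.

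miR-205-3p, the other strand of the hairpin, was close to the limit of detection. Virgin WT replicates 1, 2, and 4 held 7, 11, and 19 reads of miR-205-3p. The 4 *Zeb1 200H* libraries held 1, 0, 1, and 0 reads, and the 4 *Zeb1 200M* libraries held 3, 3, 4, and 5. Of the 2 members, miR-205-5p passed edgeR's expression filter in all 6 comparisons and miR-205-3p passed it in 0.

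Mean miR-205-3p was 1.65 ± 0.566 CPM in virgin WT (SD, n = 3), 0.0491 ± 0.0568 CPM in *Zeb1 200H* (SD, n = 4), and 0.390 ± 0.104 CPM in *Zeb1 200M* (SD, n = 4). Without WT replicate 1, the WT mean was 1.56 ± 0.768 CPM (SD, n = 2). A library with 0 reads in virgin *Zeb1 200H* allows up to 0.309 CPM (replicate 2) or 0.351 CPM (replicate 4), the level of 3 reads. The *Zeb1 200M* libraries, at 0.285 to 0.487 CPM, lay above the *Zeb1 200H* libraries, at 0 to 0.0992 CPM, in 4 of 4 cases. The difference in means was 0.340 CPM (two-sided exact permutation p = 0.0286, the smallest possible here).

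As a share of all miR-205 reads, miR-205-3p made up 0.0815%, 0.0998%, 0.145%, and 0.145% in the virgin *Zeb1 200M* libraries and 0.0271%, 0%, 0.0251%, and 0% in the *Zeb1 200H* libraries. In WT replicates 1, 2, and 4 the share was 0.166%, 0.0391%, and 0.0693%. All 4 *Zeb1 200H* values lay below all 3 WT values. The *Zeb1 200M* values lay below WT replicate 1 and above WT replicates 2 and 4, so their place relative to WT rests on WT replicate 1. The WT mean share was 0.0915% with it and 0.0542% without it.

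The mean share was 0.118 ± 0.0322% in *Zeb1 200M* (SD, n = 4) and 0.0131 ± 0.0151% in *Zeb1 200H* (SD, n = 4). The difference of 0.105 percentage points, with 4 of 4 *Zeb1 200M* libraries above all *Zeb1 200H* libraries, had exact permutation p = 0.0286, the smallest possible here. The adjustment fixed beforehand spans the 3 genotype pairs and gave p = 0.0429 (exact permutation, Benjamini-Hochberg). That value depends on the comparison of *Zeb1 200H* with WT, which is a description here, so no call is made from it. With any 1 of the 4 *Zeb1 200H* libraries left out, replicate 1, 2, 3, or 4, the difference was 0.1003 to 0.109 and its unadjusted exact permutation p stayed 0.0286. The adjusted exact p rose to 0.0857 because that of the WT pair in the family rose (range over all libraries left out in turn 0.0429 to 0.0857).

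The counts of miR-205-3p are few. The exact Clopper-Pearson 95% intervals of the share in single *Zeb1 200H* libraries reach up to 0.111% to 0.151%, into the range of the *Zeb1 200M* libraries. Summed over libraries, the share was 2 of 14070 reads in *Zeb1 200H* (0.0142%, 95% interval 0.00172% to 0.0513%), 15 of 12902 in *Zeb1 200M* (0.116%, 0.0651% to 0.192%), and 37 of 59719 in WT (0.0620%, 0.0436% to 0.0854%). The WT share was 30 of 55504 without WT replicate 1 (0.0541%, 0.0365% to 0.0772%). Intervals of summed reads, here and below, cover counting error only and leave out the spread between mice. WT replicates 1 and 2, at 0.166% and 0.0391%, lay outside the interval of all WT libraries summed.

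As a share of the virgin WT reads of its hairpin, summed over libraries, miR-205-3p was the rarest minor strand of those compared, at 0.0620%. The minor strands of miR-200c (0.0794%, 95% interval 0.0710% to 0.0886%, which overlaps that of miR-205), miR-429 (0.135%), miR-141 (0.363%), miR-200a (0.486%), and miR-200b (1.07%) followed. The order of summed shares was the same without WT replicate 1. The mean share of miR-205-3p over WT libraries was 0.0915%, and its share in WT replicate 1 was 0.166%. Both lie above the summed 0.0794% of miR-200c. The rank therefore describes summed reads and was not compared by library. The minor-strand share of miR-429, also rare, was 0.0571% in *Zeb1 200H* (95% interval 0.0312% to 0.0958%) and 0.111% in *Zeb1 200M* (0.0634% to 0.180%). That of miR-200c was 0.0862% and 0.0863%.

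At the lower depth of the breeding trial, miR-205-3p had 0, 1, 1, and 0 reads in the WT libraries and 0 in all 6 mutant libraries. A share of 0 of 113 miR-205 reads in *Zeb1 200H* allows up to 2.65% by the level of 3 reads and 3.21% by the exact Clopper-Pearson 95% interval. For 0 of 154 in *Zeb1 200M* these limits are 1.95% and 2.37%. The difference between mutants seen in the virgin cohort was not detectable at this depth.

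The miRNAs whose levels followed miR-205-5p most closely across genotypes were named by the root mean square (RMS) difference of TMM-scaled log2 CPM, centred on the WT mean, over all libraries of a cohort. Over 11 virgin libraries and 500 other miRNAs with a mean of at least 50 reads, the nearest were miR-200b-3p (0.330), miR-429-3p (0.335), miR-200a-3p (0.345), miR-200b-5p (0.438), and miR-200a-5p (0.460). All are strands of the miR-200b, miR-200a, and miR-429 cluster, and the median miRNA differed by 2.55. Without WT replicate 1, 4 of the 5 remained, and miR-141-3p took the place of miR-200a-5p.

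Over 10 breeding trial libraries and 160 other miRNAs, the miRNAs nearest to miR-205-5p were miR-429-3p (0.305), miR-200a-3p (0.318), miR-200b-3p (0.454), miR-141-3p (0.561), and miR-200c-3p (0.647), with a median of 2.43. Of the 5, 3 (miR-200b-3p, miR-429-3p, and miR-200a-3p) were among the nearest in both cohorts. Since miR-205 was chosen for its level relative to WT, this nearness describes the profiles and is no test.

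The lists that follow set miR-205 beside miRNAs of related or other cell types, counted as called at an edgeR Benjamini-Hochberg adjusted p below 0.05 over all miRNAs tested. The miR-200 superfamily, which is the subject of the study and so no independent evidence of direction, had 10 of 10 strands called lower in virgin *Zeb1 200M* relative to WT, where 6.49% of 678 miRNAs were called in either direction. In virgin *Zeb1 200H* relative to WT it had 10 of 10 called lower, where 5.06% of 672 were called. Relative to breeding trial WT, 7 of 7 tested strands were called lower in *Zeb1 200M*, where 35.9% of 276 miRNAs were called, and 7 of 7 in *Zeb1 200H*, where 12% of 267 were called. Without WT replicate 1, the share called over all miRNAs rose to 23.9% of 703 in virgin *Zeb1 200M* and 21.6% of 699 in virgin *Zeb1 200H* relative to WT. Between the mutants it was 2.22% of 675 in the virgin cohort and 1.09% of 274 in the breeding trial. These shares stand behind every list count below.

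The median log2 fold change of the superfamily relative to WT was −3.61 in virgin *Zeb1 200M* and −2.68 in virgin *Zeb1 200H*, beside −3.07 and −2.88 for miR-205-5p and medians of −0.00253 and 0.00618 over all miRNAs tested. With WT replicate 1 left out, the superfamily medians were −3.28 and −2.41, beside −3.25 and −3.08 for miR-205-5p. The breeding trial medians were −3.17 and −2.53, beside −2.98 and −3.22 for miR-205-5p. Between *Zeb1 200M* and *Zeb1 200H*, 7 of 9 tested strands were called lower in the virgin cohort, where 2.22% of 675 miRNAs were called, with a median of −0.82. Of 5 tested in the breeding trial, 2, miR-200c-3p and miR-141-3p, were called lower, where 1.09% of 274 were called, with a median of −0.35. miR-205-5p was called in neither of these mutant comparisons.

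The list of other epithelial miRNAs has 9 names, which the virgin dictionary splits into 11 sequences. In virgin *Zeb1 200M* and *Zeb1 200H*, 5 of 11 were called lower than WT in each, namely miR-182-5p, miR-96-5p, 2 forms of miR-183-5p, and miR-31-5p. miR-96-5p, of the sensory and epithelial miR-183 cluster, had a log2 fold change of −2.04 (standard error 0.161) in *Zeb1 200M* and −1.75 (standard error 0.155) in *Zeb1 200H*, and −1.91 and −1.64 without WT replicate 1. The list median was −1.55 and −1.19, each a smaller decrease than that of miR-205-5p. Without WT replicate 1, 7 of 11 were called lower in each, where 23.9% and 21.6% of all miRNAs were called, and the medians were −0.53 and −0.44. Of 8 tested in the breeding trial, 3 were called lower in each mutant (miR-182-5p, miR-183-5p, and miR-96-5p). The share called over all miRNAs was 35.9% in *Zeb1 200M*, near that of the list, and 12% in *Zeb1 200H*. Between the mutants, 2 of 11, both forms of miR-183-5p, were called lower in virgin *Zeb1 200M*, and 0 of 7 in the breeding trial, where 2.22% and 1.09% of all miRNAs were called.

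miR-205 is itself a marker of stratified epithelium, so 3 other miRNAs of that tissue were read beside it, miR-31-5p, miR-203-3p (2 forms in the virgin dictionary), and miR-184-3p. Of 4 sequences, 1 was called lower in virgin *Zeb1 200M* and in virgin *Zeb1 200H* relative to WT, namely miR-31-5p (log2 fold changes −1.63 and −1.51, or −1.34 and −1.24 without WT replicate 1). These counts were 2 of 4 and 1 of 4 without WT replicate 1. Relative to WT, the log2 fold changes of the miR-203-3p forms were −0.06 and −0.03 (*Zeb1 200M*) and 0.06 and 0.10 (*Zeb1 200H*), without a call. Those of miR-184-3p were −1.55 (*Zeb1 200M*) and −0.72 (*Zeb1 200H*), also without a call, and −0.53 (called) and 0.28 (not called) without WT replicate 1. Between the virgin mutants 0 of 4 were called, and 0 of 3 between those of the breeding trial, where 2.22% and 1.09% of all miRNAs were called. Relative to breeding trial WT 0 of 3 were called in either mutant. There miR-31-5p had −0.21 (*Zeb1 200M*) and −0.60 (*Zeb1 200H*), and miR-184-3p −0.71 and 0.68.

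The summed level of that list was 432, 439.7, and 442 CPM in virgin WT replicates 1, 2, and 4. It was 352, 361, 359, and 357 CPM in *Zeb1 200H* and 337, 318, 292, and 338 CPM in *Zeb1 200M*. Libraries of the breeding trial held 369, 202, 345, and 250.5 CPM in WT, 355, 349.8, and 388 CPM in *Zeb1 200H*, and 205, 354, and 228 CPM in *Zeb1 200M*. miR-31-5p was its most abundant member in virgin WT and a form of miR-203-3p in every other group, and none was at 0. All 8 virgin mutant sums lay below all 3 WT sums, with means of 357 CPM (*Zeb1 200H*) and 321 CPM (*Zeb1 200M*) beside 438 CPM in WT. These lower sums rest on miR-31-5p, with means of 222 CPM in WT, 101 CPM in *Zeb1 200H*, and 96.9 CPM in *Zeb1 200M*. Means of miR-184-3p were 58.8, 50.8, and 29.5 CPM in that order. Those of the miR-203-3p forms were higher in mutants, at 72.8, 95.0, and 90.9 CPM and at 84.4, 110, and 104 CPM. The groups overlapped in the breeding trial. The part of this epithelium in the level of miR-205-5p was not tested.

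The neuronal and glial miRNAs that were called were higher in mutants, not lower as miR-205-5p was. Of 7 sequences, 2 were called higher in each virgin comparison, the forms of miR-124-3p, a neuronal miRNA, where 2.22% of all miRNAs were called between the mutants. The count relative to WT was 4 of 7 in each mutant without WT replicate 1, as the share over all miRNAs rose from 6.49% and 5.06% to 23.9% and 21.6%. Among breeding trial libraries 3 of 6 were called higher in *Zeb1 200M* relative to WT, 1 of 6 in *Zeb1 200H* relative to WT, and 1 of 6 between the mutants, again miR-124-3p. The share over all miRNAs was 35.9%, 12%, and 1.09%.

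The summed level of the neuronal and glial list was 1760, 3191, and 3471 CPM in virgin WT, 6322, 6522, 6810.3, and 6892 CPM in *Zeb1 200H*, and 9894, 8585, 9831, and 6990.5 CPM in *Zeb1 200M*. Breeding trial libraries held 4465, 3879, 3675, and 4644 CPM in WT, 8799.8, 7462, and 9374 CPM in *Zeb1 200H*, and 12548, 12489, and 12996 CPM in *Zeb1 200M*. miR-124-3p was its most abundant member and none was at 0. Within each cohort, all mutant libraries thus had a higher sum and less miR-205-5p than any WT library. The members did not all go that way, as miR-219a-5p had log2 fold changes of −0.76 (*Zeb1 200M*) and −0.53 (*Zeb1 200H*) relative to virgin WT, without a call. These values were −0.28 and −0.07 without WT replicate 1, and 0.28 and 0.07 in the breeding trial. The part of these miRNAs in the level of miR-205-5p was not tested.

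The pituitary endocrine miRNAs miR-7a-5p, miR-7b-5p, and miR-375-3p, abundant in hormone-producing cells, served as a check of the tissue. They summed to a mean of 303840 CPM in virgin WT, 264773 in *Zeb1 200H*, and 250995 in *Zeb1 200M*. The WT mean rests on replicate 1, at 368951 CPM, while replicates 2 and 4 held 269425 and 273145 CPM, within the range of *Zeb1 200H*. The sums were 300364, 274480.2, and 253305 CPM in the breeding trial, in the same order. Of these 3, 0 were called in any virgin comparison by edgeR with WT replicate 1, and 1 was called lower in each mutant relative to WT without it. Relative to breeding trial WT, miR-375-3p and miR-7a-5p were called lower in *Zeb1 200M*, miR-375-3p alone in *Zeb1 200H* (log2 fold change −0.59; with replicate number as a block also miR-7a-5p, −0.25), and 0 between the mutants. The decrease of miR-375-3p in *Zeb1 200M*, −0.62 (standard error 0.1002), compares with −2.98 for miR-205-5p.

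Called markers of other cells of the gland had smaller log2 fold changes than miR-205-5p. Of the smooth muscle and fibroblast miRNAs, 1 of 3 was called higher in virgin *Zeb1 200M* (miR-145a-5p, log2 fold change 0.57), 0 of 3 in virgin *Zeb1 200H* (1 of 3 in each without WT replicate 1), 2 of 3 in breeding trial *Zeb1 200M*, and 0 of 2 in breeding trial *Zeb1 200H*. miR-126a-3p of endothelium, listed as 2 forms in the virgin cohort, was called higher in breeding trial *Zeb1 200M* relative to WT (0.28) and had a like value, not called, in *Zeb1 200H* (0.31). Neither form was called in virgin mutants. Of the blood and immune cell miRNAs, 0 of 5 were called in virgin mutants relative to WT (without WT replicate 1, 0 of 5 for *Zeb1 200M* and 1 of 5 for *Zeb1 200H*). Of 3 in the breeding trial, 2, miR-223-3p and miR-144-3p, were called higher in *Zeb1 200M* (1.06 and 0.57) and 0 of 3 in *Zeb1 200H*, where their values were 0.83 and 0.44 (with replicate number as a block miR-144-3p was called, 0.50). Over all miRNAs 35.9% and 12% were called in these comparisons. Between the mutants, 0 members of these 3 lists were called in either cohort, where 2.22% and 1.09% of all miRNAs were called. Over the 23 pairs of a list and a comparison with 0 called by edgeR, 0 to 2 members had an unadjusted p below 0.05, and in 5 of the 23 DESeq2 called 1. DESeq2 also lost calls in breeding trial *Zeb1 200M* relative to WT. There it called 0 of 1 for endothelium, 1 of 3 for smooth muscle and fibroblasts, and 2 of 6 for neurons and glia. Of the other epithelial list it called 8 of 11 in virgin *Zeb1 200M* and 7 of 11 in virgin *Zeb1 200H* relative to WT. The part of any of these cells in the level of miR-205-5p was not tested.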

How the data were processed

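The authors size-selected small RNAs, trimmed adapters with cutadapt, kept reads that passed a quality filter at every base, and matched read starts to miRNA dictionaries (TargetScanMouse for the virgin cohort, miRBase for the breeding trial cohort). The values used are the raw read counts per miRNA and library that the authors deposited, in 6 tables where all 21 libraries occur more than once with identical counts. The 42 columns of counts scaled by DESeq2 size factors, and the authors' fold changes, were not used here.

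Counts were compared within a cohort, 2 genotypes at a time, with the quasi-likelihood F test of edgeR 4.0.16 in R 4.3.3 (TMM, filter with minimum count 10 and minimum total 15, Benjamini-Hochberg threshold 0.05), after the fit was tested on simulated data. Standard errors were derived from F. Ratios and strand shares were compared by two-sided exact permutation of mean differences. Alternatives were DESeq2 1.42.0, its size factors in edgeR, TMM without miR-200 and miR-205, no filter, the replicate number as a block, and leaving out each library. Figures and exact tests used Python 3.11.15. miR-205, the lists, and the naming rules (the 5 nearest profiles, the neighbours in WT level, and every list member) were chosen with earlier results of these data known.

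Residuals of libraries with the same replicate number correlated in every pair (0.198, 0.289, and 0.330 over 161 miRNAs) for breeding trial WT and *Zeb1 200H* libraries alone. On this ground only, the numbers were taken as pairs in that comparison, since the labels do not say what they mark. With replicate number as a block, the log2 fold change of miR-205-5p there was −3.08, and 42 miRNAs were called in place of 32. The main fit and the list counts are without the block, as fixed beforehand.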

Additional observations from a re-analysis of the deposited data

Results flagged for a closer look

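Of 25 groups of 4 libraries tested for a library apart from the others, 1 was found, and chance gives about 1 in 20. The log2 ratio of miR-205-5p to miR-429-3p in virgin *Zeb1 200H* replicate 3 was −1.06, against −0.71, −0.69, and −0.64 in replicates 1, 2, and 4. Its gap to the nearest library was 0.842 of the range of the group, above the critical value of 0.829. Its miR-205-5p level, 396 CPM, was the highest of its group. So was its miR-429-3p level, 824 CPM beside a group median of 575 CPM, which makes the ratio low.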

How the results depend on the processing

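The description of miR-205-5p relative to WT kept its direction under every alternative and with each library left out, with log2 fold changes from −3.25 to −2.88 (*Zeb1 200M*) and −3.08 to −2.70 (*Zeb1 200H*) in the virgin cohort and from −3.28 to −2.83 and −3.36 to −3.08 in the breeding trial. The virgin comparison of *Zeb1 200M* with *Zeb1 200H* stayed uncalled in all of them (−0.23 to −0.13). That of the breeding trial stayed uncalled too but ranged from −0.028, without *Zeb1 200M* replicate 2, to 0.41.

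With same-number libraries as a replicate block, the virgin differences between *Zeb1 200M* and *Zeb1 200H* in the log2 ratios, 0.28, 0.31, 1.05, 1.03, and 0.61, in miR-205-3p level, 0.340 CPM, and in miR-205-3p share, 0.105 percentage points, had exact sign-flip p = 0.125, the smallest that 4 pairs can give. The share in *Zeb1 200H* relative to WT, a description, differed by −0.0825 with the block. Outside the breeding trial comparison of *Zeb1 200H* with WT, same-number libraries did not correlate in every pair. In virgin *Zeb1 200M* and *Zeb1 200H*, 3 of 4 correlated best with their own number. The block changed no call of miR-205-5p. Among list members of breeding trial *Zeb1 200H* and WT libraries, whose numbers were taken as pairs, the block added miR-7a-5p and miR-144-3p. It left miR-141-5p untested and changed no other call. With single libraries left out, the miR-205-3p share differed by 0.0956 to 0.117 between the mutants and by −0.105 to −0.0412 between *Zeb1 200H* and WT, and the 5 virgin ratios kept their calls (0.24 to 1.09).

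The number of miRNAs called in virgin *Zeb1 200M* relative to WT, 44, was 86 with DESeq2, 20 with the replicate block, and 25 to 168 with single libraries left out, 168 without WT replicate 1. In virgin *Zeb1 200H* it was 34, and 67, 18, and 21 to 151, with 151 without WT replicate 1. Between the mutants of the breeding trial it was 3, and 0 with the replicate block in edgeR, where 29 had an unadjusted p below 0.05, 3 with DESeq2, and 3 to 5 with single libraries left out. The causes were not tested. List counts with the block, and list counts, nearest profiles, WT rank and neighbours, and summed WT strand shares without WT replicate 1, were chosen after seeing the data.

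The main limits are the 60037 to 191650 reads of breeding trial libraries, which leave miR-205-3p undetected in mutants, the few reads of miR-205-3p in virgin mutants, and groups of 3 and 4 mice.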
